A study of Homo sapiens with 40 samples.

Results

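The expression of 10 genes of lipid droplets and fatty acid metabolism was followed in A549, an established line of human lung carcinoma cells, after treatment with dexamethasone (dex), a synthetic glucocorticoid. The genes were CIDEC, its transcribed pseudogene CIDECP1, ANGPTL4, ACSL1, PLIN2, PLIN3, PDK4, CPT1A, PNPLA2 and LPIN1. They were chosen by name, with earlier results of these data known. Every array probe annotated to them was kept. This gave 16 of the 26360 probes with 1 gene symbol, and 10 of the 18353 genes these probes stand for. ANGPTL4 and CPT1A had 3 probes each, CIDEC and PLIN2 had 2, and the other 6 genes had 1. All 16 probes had a mean above 5 on the log2 intensity scale in at least 1 group, the line drawn here for a measurable signal. CIDEC probe ILMN_1779597 and ANGPTL4 probe ILMN_1674376 passed it only through dex-treated groups, and CPT1A probe ILMN_1687589 only through 2 of the 10 groups.

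Total RNA was hybridised to 40 Illumina arrays. Oligofectamine had been used to transfect siRNA that depletes CCAR1, CCAR2, ZNF282 or CoCoA (the product of CALCOCO1), which are coregulators of steroid receptors; a nonspecific siRNA, siNS, served as control. Cells were then kept in hormone-free medium and given 100 nM dex, or ethanol as the vehicle, for 6 h. The groups held 4 dex and 4 ethanol arrays each for siCCAR1, siCoCoA and siCCAR2, 2 and 2 for siZNF282, and 6 and 6 for siNS. All groups share the cell line, the transfection and the hormone-free medium, so no untransfected cells enter the comparisons. Titles of ethanol arrays say 0 h, whereas the protocol gives ethanol for the same 6 h.

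Lipid droplets store triglyceride and are coated by proteins that decide how fast the store is broken down. CIDEC promotes the growth of droplets, the perilipins PLIN2 and PLIN3 coat them, and PNPLA2 is the lipase that takes the first fatty acid off a triglyceride. ANGPTL4 is secreted and inhibits lipoprotein lipase, ACSL1 couples fatty acids to coenzyme A, LPIN1 makes diacylglycerol, CPT1A admits fatty acids to mitochondria, and PDK4 shuts down pyruvate dehydrogenase so that fatty acids are burned in place of glucose. Glucocorticoids act through the glucocorticoid receptor, which binds DNA as a dimer at an inverted repeat, and several of these genes are known targets of glucocorticoids or of the fatty acid receptors of the PPAR family.

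The promoters of the genes were searched for the receptor's recognition letters. RefSeq promoter windows of 300 bases (250 before and 50 after a start site, GRCh38.p14) were available for 9 of the 10 genes, 16 windows in all, and CIDECP1 had none. The hexamer AGAACA, or TGTTCT on the other strand, lay in 3 of the 16 windows, against 14.8% of all 35116 windows. The inverted repeat, AGAACA followed after any 3 bases by TGTTCT, lay in 0 of the 16 (0.00285% of all windows, 1 window). The repeat AGGTCA, any 1 base, AGGTCA, on either strand, which PPAR dimers recognise, also lay in 0 of the 16 (0.0228% of all windows, 8 windows). The 2 motifs with AGAACA overlap by construction. The 250 bases before the start sites are printed for the 3 windows that hold the hexamer, in capitals, and for ANGPTL4, the other gene whose probe rose over 5-fold with dex. The first hexamer base lies 240 bases before the CIDEC start site, 247 and 140 bases before the ACSL1 start site and 246 bases before the PDK4 start site. These are the second of 2 RefSeq windows for CIDEC and 1 of 5 for ACSL1. A match is a description of the letters, and its absence from these windows says nothing about the receptor's binding elsewhere.
CIDEC (chr3:9878813-9879062, minus strand): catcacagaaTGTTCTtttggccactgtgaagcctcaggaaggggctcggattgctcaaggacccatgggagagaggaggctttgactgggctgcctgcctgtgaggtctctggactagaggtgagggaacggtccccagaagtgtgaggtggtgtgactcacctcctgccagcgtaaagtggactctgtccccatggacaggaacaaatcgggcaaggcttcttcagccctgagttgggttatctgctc
ACSL1 (chr4:184812252-184812501, minus strand): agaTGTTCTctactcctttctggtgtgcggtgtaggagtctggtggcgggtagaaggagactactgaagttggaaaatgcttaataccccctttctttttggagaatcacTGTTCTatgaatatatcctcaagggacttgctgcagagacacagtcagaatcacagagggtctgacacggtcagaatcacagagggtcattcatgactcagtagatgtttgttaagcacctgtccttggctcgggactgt
PDK4 (chr7:95596517-95596766, minus strand): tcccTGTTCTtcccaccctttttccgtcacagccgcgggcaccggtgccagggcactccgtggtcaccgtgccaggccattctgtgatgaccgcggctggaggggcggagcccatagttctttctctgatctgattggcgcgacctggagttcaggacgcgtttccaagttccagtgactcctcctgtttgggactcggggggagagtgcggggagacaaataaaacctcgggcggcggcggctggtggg
ANGPTL4 (chr19:8363905-8364154, plus strand): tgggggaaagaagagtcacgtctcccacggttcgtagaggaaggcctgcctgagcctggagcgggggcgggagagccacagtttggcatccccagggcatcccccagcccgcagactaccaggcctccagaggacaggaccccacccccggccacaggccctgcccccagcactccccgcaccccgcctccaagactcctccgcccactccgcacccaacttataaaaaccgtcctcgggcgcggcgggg

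The siRNA targets were lower than in siNS cells, with at most 64.8% of the CCAR1 signal left in siCCAR1 cells in dex, at most 76.6% of CALCOCO1 in siCoCoA cells, 20.3% of CCAR2 in siCCAR2 cells and 55.5% of ZNF282 in siZNF282 cells. In ethanol the shares were 60.5%, at most 86.0%, 20.1% and 37.4% in the same order. The bounds are taken against the line, since those depleted means lay below it. siCoCoA cells also held less CCAR2 (46.7% in dex and 51.5% in ethanol), and NR3C1, the glucocorticoid receptor, was not called in any comparison of a depletion with siNS. All 5 epithelial markers had a mean above the line in at least 1 group. Of 5 adipocyte markers on the array only LIPE did, at 5.06 in siCCAR2 dex arrays, with 4.25 to 4.98 in the other groups. By the same rule 2 of 4 leukocyte markers (CD14 and CD68), 0 of 4 endothelial markers and 1 of 5 fibroblast markers (COL1A1) passed. The mean level of 8 interferon-stimulated genes differed between siRNAs: in dex it was 10.5 in siCCAR1, 12.1 in siCoCoA, 11.4 in siCCAR2, 13.3 in siZNF282 and 7.09 in siNS cells, and in ethanol it was 9.46, 11.4, 11.4, 13.4 and 6.44 in the same order (log2).

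Dex raised most of these genes in siNS cells. Of the 16 probes, 10 were called higher and 0 lower, where 6.87% of all 13903 probes tested were called higher and 7.95% lower. The genes were chosen with earlier results of these data known. Among the called probes, ILMN_1779597 and ILMN_1674376 passed the line only through dex groups. The counts are therefore a description and no test of the set. Called means an adjusted p under 0.05 in limma, with the Benjamini-Hochberg method over all 13903 probes. The genes called were CIDEC, CIDECP1, ANGPTL4, ACSL1, PLIN2 and PDK4, and the median log2 change of the 16 probes was 0.75, beside −0.03 for all probes tested. For 9 of the 16 probes the dex and ethanol arrays of siNS cells did not overlap. This was not counted over all probes, so the number is only a description. PLIN3, LPIN1, PNPLA2 and CPT1A were not called in this test.

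Among the droplet proteins, CIDEC changed most. Probe ILMN_2174437 had a lowest, median and highest value of 9.84, 11.01 and 11.43 in siNS dex arrays, against 6.06, 6.66 and 7.22 in siNS ethanol arrays. Every dex array was thus well above every ethanol array. The log2 difference was 4.26 ± 0.29 (SE), a 19.1-fold higher intensity (adjusted p = 2.4e-14). The other CIDEC probe, ILMN_1779597, had 7.18, 7.92 and 8.22 in dex, against 4.40, 4.92 and 5.30 in ethanol. Its ethanol mean was below the line of 5, so its difference of 2.93 ± 0.19 (adjusted p = 1.3e-14) was read as at least 7.15-fold.

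CIDECP1 lies on the same chromosome as CIDEC (chr3:10017553-10026136, with CIDEC at chr3:9866710-9880253; gene positions here and in what follows are RefSeq's on GRCh38.p14). Its single probe had 7.30, 7.67 and 7.91 in siNS dex arrays, against 5.07, 5.37 and 5.68 in siNS ethanol arrays. The difference was 2.24 ± 0.14 (adjusted p = 6.7e-15, 4.72-fold), and the groups did not overlap. Signal of the pseudogene and cross-hybridising CIDEC transcript cannot be told apart here, since probe sequences were not used. Over the 10 group means the Pearson correlation of the CIDECP1 probe with CIDEC probe ILMN_2174437 was 0.983, and over the 40 arrays within groups it was 0.599; the 2 probes share the arrays and their RNA.

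PLIN2 (chr9:19108388-19127492) rose by a smaller amount. Probe ILMN_2138765 had 10.61, 10.69 and 11.09 in siNS dex arrays, against 9.73, 10.16 and 10.37 in siNS ethanol arrays, a difference of 0.66 ± 0.13 (adjusted p = 0.00025, 1.58-fold). Probe ILMN_1801077 had 9.06, 9.37 and 9.68 in dex, against 8.34, 8.55 and 8.74 in ethanol, a difference of 0.84 ± 0.14 (adjusted p = 1.3e-05, 1.79-fold). Both probes were apart between the treatments.

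PLIN3 (chr19:4838341-4867667) and the lipase PNPLA2 (chr11:818914-825573) overlapped between treatments. PLIN3 had 10.75, 11.14 and 11.44 in siNS dex arrays, against 10.56, 10.86 and 11.17 in siNS ethanol arrays, with a difference of 0.28 ± 0.12 that was not called (adjusted p = 0.12). With the replicate number as a block, an effect per number shared by the arrays of all groups, the same difference was called (adjusted p = 0.022). PNPLA2 had 6.82, 7.15 and 7.68 in dex, against 6.69, 6.90 and 7.60 in ethanol. Its difference was 0.17 (95% interval −0.19 to 0.53, adjusted p = 0.62).

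**Figure D1:**
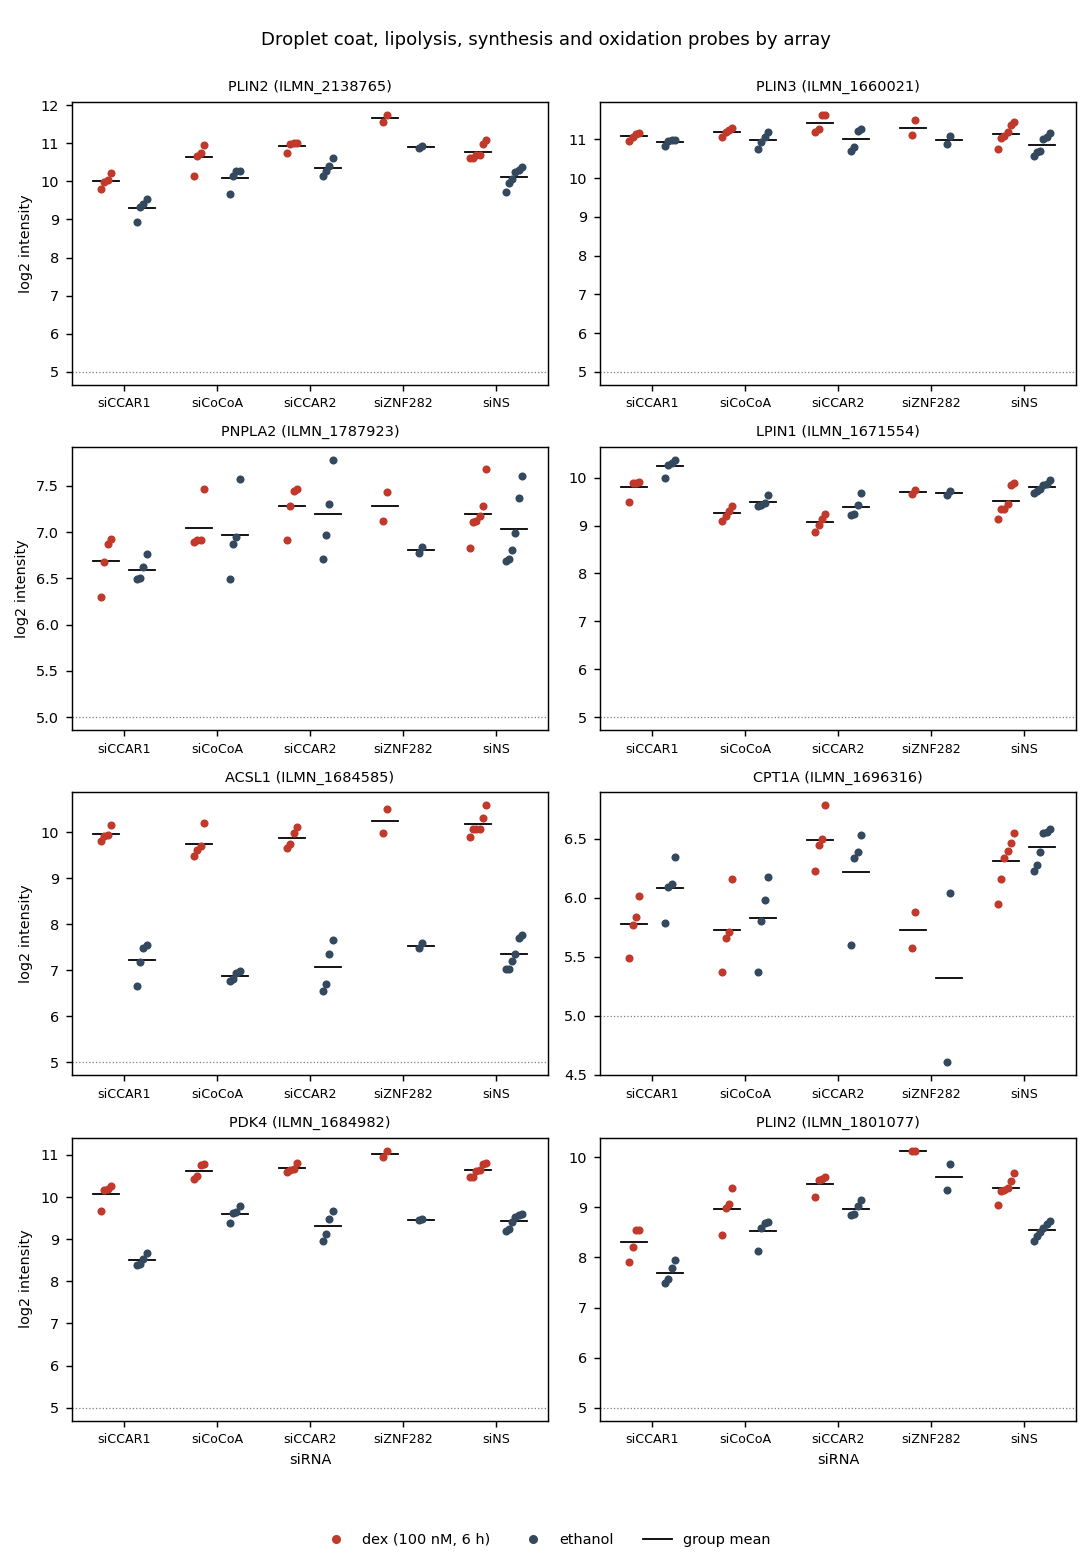
Log2 intensity on every array (points; y axis) of 8 probes of 7 member genes by siRNA (x axis), with dex arrays left of ethanol arrays and bars at the group means; the dotted line marks 5. The siNS dex arrays of ACSL1 sit between 9.91 and 10.59 and its siNS ethanol arrays between 7.02 and 7.77, while PLIN3, PNPLA2 and CPT1A overlap between the treatments in siNS cells.

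ANGPTL4 (chr19:8364155-8374370), the secreted lipase inhibitor, was called higher on all 3 of its probes. Probe ILMN_1707727 had 9.93, 10.50 and 10.84 in siNS dex arrays, against 6.62, 7.19 and 7.98 in siNS ethanol arrays, a difference of 3.20 ± 0.20 (adjusted p = 3.6e-15, 9.18-fold). Probe ILMN_2386444 had 6.91, 7.19 and 7.48 in dex, against 5.49, 5.83 and 6.03 in ethanol, a difference of 1.39 ± 0.14 (adjusted p = 7.2e-10, 2.62-fold). Both sets of arrays were apart. Probe ILMN_1674376 had 4.40, 5.33 and 5.77 in dex, against 4.33, 4.70 and 5.03 in ethanol, and these overlapped. Its difference of 0.53 ± 0.18 was called at an adjusted p of 0.049, at least 1.17-fold. That call was lost with the replicate block (adjusted p = 0.054), and on leaving out any 1 of 8 of the 12 arrays, namely dex arrays 2, 3, 4 and 6 and ethanol arrays 1, 3, 4 and 6 (adjusted p up to 0.15).

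Whether 2 probes of a gene moved unequally was tested within arrays, by the difference between the probes in the 6 dex and the 6 ethanol arrays of siNS cells. The smallest p this design allows is 0.0022, and 8 probe pairs were compared. The dex response of CIDEC probe ILMN_2174437 exceeded that of ILMN_1779597 by 1.33 (log2; exact permutation test, 2-sided, p = 0.0022, adjusted p = 0.0043). The 3 ANGPTL4 pairs differed by 1.81, 2.67 and 0.86, each at the same p-values in the exact permutation test. The PLIN2 probes differed by −0.18 (exact permutation p = 0.18), and the CPT1A probes by −0.08, −0.29 and −0.21 (exact permutation p = 0.65, 0.28 and 0.45). With the replicate number as a block, by permuting signs over the 6 numbers, 0 of the 8 pairs passed after adjustment. So few sign patterns exist that pairs could pass only with most of the 8 at the smallest p allowed. This check therefore cannot decide, and nothing is read from it. The siNS ethanol means of ILMN_1779597 and ILMN_1674376 were below the line, as were both siNS means of CPT1A probe ILMN_1687589. A level there is known only as a bound, so the pairs with these probes, among them the differences of 1.33, 2.67 and 0.86, do not show an unequal response. Of the pairs that passed, only that of ILMN_1707727 and ILMN_2386444 (1.81) had all its siNS means above the line.

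**Figure D2:**
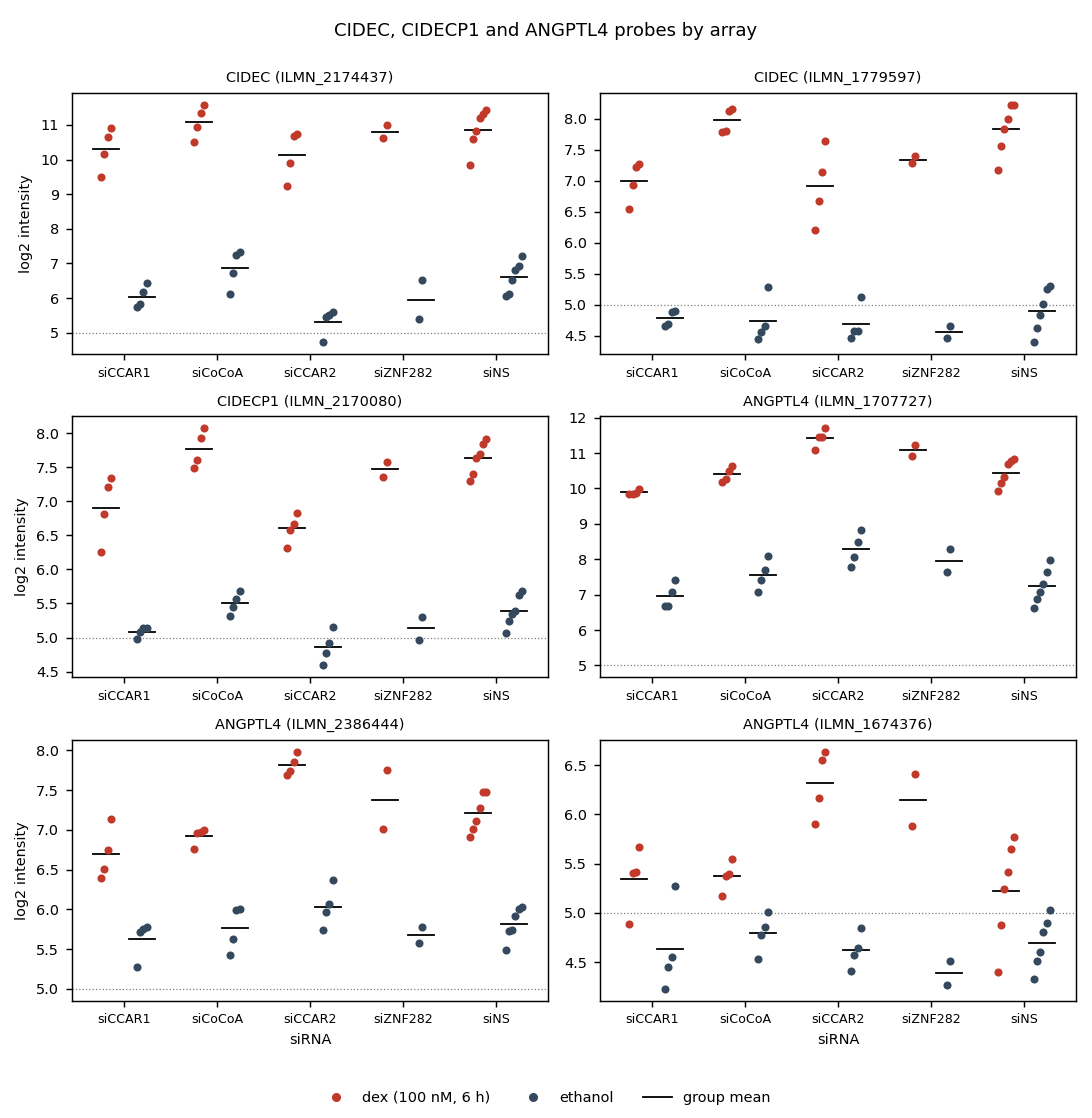
Log2 intensity on every array (points; y axis) of the CIDEC, CIDECP1 and ANGPTL4 probes by siRNA (x axis), dex left of ethanol, with bars at the group means and a dotted line at 5. CIDEC probe ILMN_2174437 spans 6.06 to 11.43 over the siNS arrays, whereas ANGPTL4 probe ILMN_1674376 stays between 4.33 and 5.77 there.

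Of the enzymes that handle fatty acids on the way to storage, ACSL1 (chr4:184755595-184826594) rose and LPIN1 (chr2:11677544-11827409) was not called. ACSL1 had 9.91, 10.08 and 10.59 in siNS dex arrays, against 7.02, 7.28 and 7.77 in siNS ethanol arrays. The difference was 2.82 ± 0.17 (adjusted p = 9.1e-16, 7.07-fold), with the treatments far apart. LPIN1 had 9.14, 9.41 and 9.90 in dex, against 9.69, 9.81 and 9.96 in ethanol, so that the dex arrays spread below the ethanol arrays but overlapped with them. Its difference of −0.30 ± 0.11 was not called (adjusted p = 0.062). With the replicate block it was called lower (adjusted p = 0.010).

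PDK4 (chr7:95583499-95596516), which turns cells from glucose to fatty acid oxidation, rose, and CPT1A (chr11:68754620-68844277), the entry step of that oxidation, gave no call. PDK4 had 10.47, 10.63 and 10.80 in siNS dex arrays, against 9.19, 9.46 and 9.60 in siNS ethanol arrays, a difference of 1.21 ± 0.11 (adjusted p = 9.1e-11, 2.31-fold). CPT1A probe ILMN_1696316 had 5.95, 6.36 and 6.55 in dex, against 6.23, 6.47 and 6.58 in ethanol. Its difference was −0.12, with a 95% interval of −0.48 to 0.24. The other CPT1A probes, ILMN_1710052 and ILMN_1687589, differed by −0.04 and 0.17, at adjusted p = 0.92 and 0.60.

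The same 6 genes responded in every depletion. Dex called 10 probes higher and 1 lower in siCCAR1 cells (3.85% and 2.81% of all probes), 8 and 0 in siCoCoA cells (4.84% and 4.02%), 9 and 0 in siCCAR2 cells (5.77% and 2.98%) and 9 and 0 in siZNF282 cells (3.73% and 2.22%). The median log2 change of the 16 probes was 0.71, 0.56, 0.98 and 1.16 in these cells, beside −0.02, −0.02, 0.00 and 0.01 over all probes. CIDEC, CIDECP1, ANGPTL4, ACSL1, PLIN2 and PDK4 each had at least 1 probe called higher with each of the 5 siRNAs. The responses share no arrays between siRNAs, but the genes were chosen with earlier results of these data known. Probes ILMN_1779597 and ILMN_1674376 also passed the line only through dex groups. These counts and medians are therefore a description and no test of the set.

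CIDEC, ACSL1, ANGPTL4 and PDK4 were each called higher with every depletion. CIDEC probe ILMN_2174437 was higher in dex by 4.27 ± 0.35 with siCCAR1, 4.23 ± 0.35 with siCoCoA, 4.81 ± 0.35 with siCCAR2 and 4.85 ± 0.50 with siZNF282 (SE), beside 4.26 ± 0.29 in siNS cells. ACSL1 was higher by 2.74 ± 0.21, 2.87 ± 0.21, 2.80 ± 0.21 and 2.71 ± 0.29 in the same order, beside 2.82 ± 0.17 in siNS cells. The 95% intervals of the difference from the siNS response lay between −0.96 and 1.76 for CIDEC and between −0.79 and 0.59 for ACSL1. For ANGPTL4 probe ILMN_1707727 the differences were 2.93 ± 0.25, 2.83 ± 0.25, 3.13 ± 0.25 and 3.12 ± 0.35, beside 3.20 ± 0.20. PDK4 was higher by 1.57 ± 0.14 in siCCAR1, 1.01 ± 0.14 in siCoCoA, 1.38 ± 0.14 in siCCAR2 and 1.57 ± 0.19 in siZNF282 cells, beside 1.21 ± 0.11 in siNS cells. Limma gave the largest adjusted p of these 16 responses in the depleted cells as 1.1e-06, for PDK4 in siCoCoA cells.

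CIDECP1 and the other CIDEC and ANGPTL4 probes were also called higher in dex with each depletion, except ILMN_1674376 with siCoCoA. CIDEC probe ILMN_1779597 was higher in dex by 2.21 ± 0.24 in siCCAR1 cells and 2.22 ± 0.24 in siCCAR2 cells, at least 3.98-fold and 3.77-fold, and by 3.23 ± 0.24 and 2.78 ± 0.34 in siCoCoA and siZNF282 cells, at least 7.85-fold and 5.07-fold. CIDECP1 differed by 1.82 ± 0.18 in siCCAR1, 2.27 ± 0.18 in siCoCoA, 1.74 ± 0.18 in siCCAR2 and 2.34 ± 0.25 in siZNF282 cells. Its siCCAR2 ethanol mean was below the line, so that this response was at least 3.03-fold. ANGPTL4 probe ILMN_2386444 was higher in dex by 1.07 ± 0.17, 1.16 ± 0.17, 1.78 ± 0.17 and 1.70 ± 0.24 in the same order. Probe ILMN_1674376 was higher by 1.70 ± 0.23 in siCCAR2 cells (adjusted p = 5.4e-07, at least 2.49-fold) and 1.76 ± 0.32 in siZNF282 cells (adjusted p = 0.00033, at least 2.21-fold). With only the 4 siZNF282 arrays in the fit, the siZNF282 calls of these ANGPTL4 probes were lost, at adjusted p = 0.096 for ILMN_2386444 and 0.058 for ILMN_1674376. Probe ILMN_1674376 differed by 0.71 ± 0.23 in siCCAR1 cells (adjusted p = 0.049, at least 1.27-fold) and by 0.58 ± 0.23 in siCoCoA cells (adjusted p = 0.12, not called). The siCCAR1 call was lost with the replicate block (adjusted p = 0.053) and without any 1 of 6 of the 8 arrays, dex 1, 2 and 4 and ethanol 2, 3 and 4 (adjusted p up to 0.20).

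PLIN2 probe ILMN_2138765 was higher in dex with each depletion. The differences were 0.71 ± 0.16, 0.54 ± 0.16, 0.58 ± 0.16 and 0.74 ± 0.23 in siCCAR1, siCoCoA, siCCAR2 and siZNF282 cells, at adjusted p-values of 0.0025, 0.025, 0.015 and 0.041. Leaving out any of dex arrays 1, 3 and 4 or ethanol array 2 ended the siCoCoA call (adjusted p up to 0.15). The siCCAR2 call ended without ethanol array 2 (adjusted p = 0.068), and the siZNF282 call without any 1 of its 4 arrays (adjusted p up to 0.24). Probe ILMN_1801077 of PLIN2 was called in siCCAR1 cells (0.61 ± 0.17, adjusted p = 0.016), and leaving out any of dex arrays 1 and 3 and ethanol arrays 1 and 2 ended that call (adjusted p up to 0.080). In siCoCoA, siCCAR2 and siZNF282 cells it differed by 0.45, 0.50 and 0.52 and was not called (adjusted p = 0.097, 0.051 and 0.23). With the replicate block it was called in siCoCoA cells (adjusted p = 0.028) and in siCCAR2 cells (adjusted p = 0.012).

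The 4 genes that were not called in siNS cells gave 1 call in the depleted cells. LPIN1 had 9.89, 9.50, 9.91 and 9.89 in siCCAR1 dex arrays, against 10.27, 10.00, 10.37 and 10.30 in siCCAR1 ethanol arrays, which is lower without overlap. It fell by 0.44 ± 0.13 on the log2 scale (fitted difference −0.44, adjusted p = 0.041), and the call was lost without any 1 of 6 of the 8 arrays, dex 1, 2 and 4 and ethanol 1, 3 and 4 (adjusted p up to 0.20). LPIN1 differed by −0.23 in siCoCoA, −0.33 in siCCAR2 and 0.03 in siZNF282 cells, none called; with the replicate block LPIN1 was called lower in siCCAR2 cells (adjusted p = 0.034). PLIN3 differed by 0.14, 0.21, 0.43 and 0.31 in siCCAR1, siCoCoA, siCCAR2 and siZNF282 cells, none called, and with the replicate block the siCCAR2 difference was called (adjusted p = 0.0061). PNPLA2 differed by 0.07 to 0.47 and the CPT1A probes by −0.58 to 0.41, with no call.

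**Figure D3:**
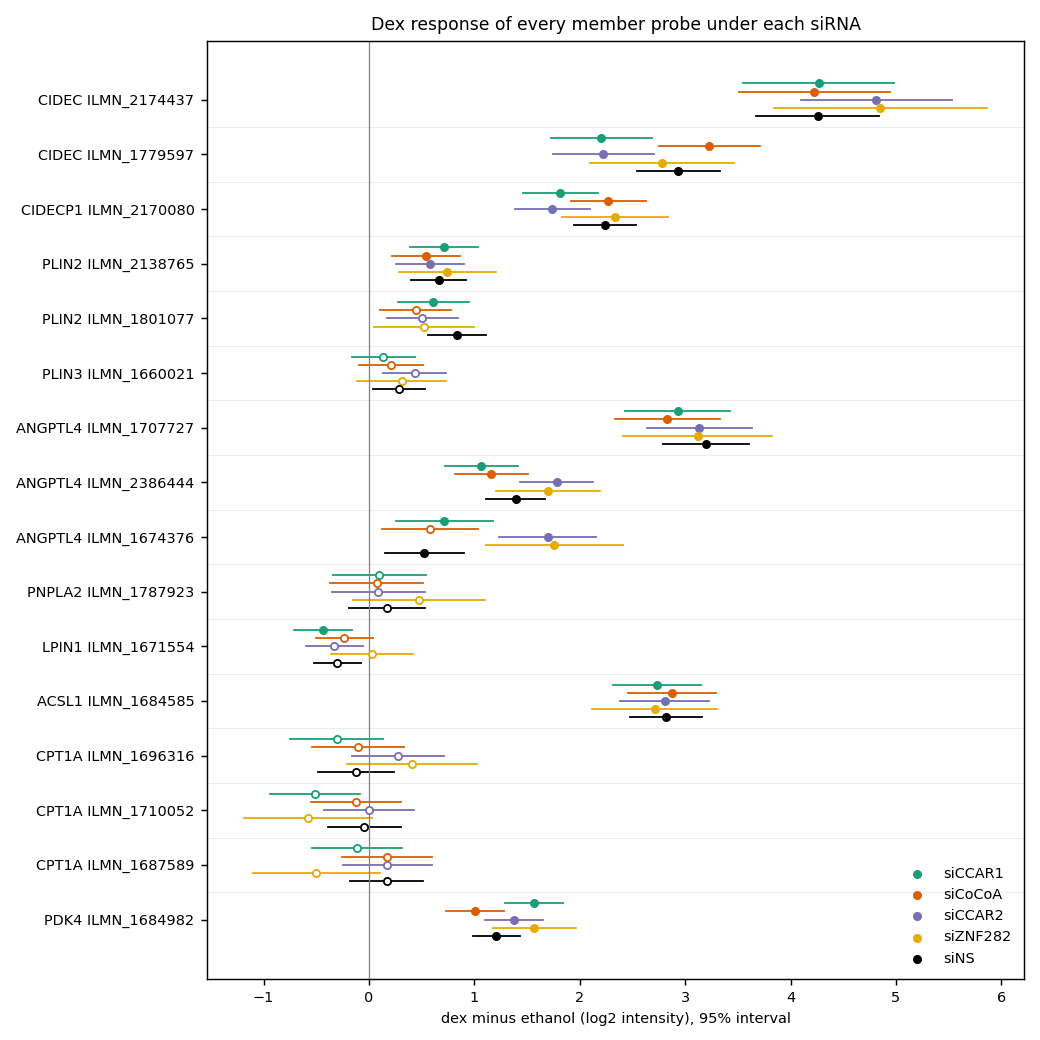
Dex minus ethanol difference in log2 intensity (x axis) for each of the 16 probes (rows) with each siRNA (colours); bars are 95% intervals and filled points have an adjusted p under 0.05. CIDEC, CIDECP1, ANGPTL4, ACSL1 and PDK4 lie to the right of 0 with all 5 siRNAs, from 0.53 to 4.85.

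The difference between the dex response of a depletion and that of siNS cells was tested directly. No member probe was called in any of the 4 tests (limma, 0 of 16 each), where 0.0791% of all probes were called in either direction for siCCAR1, 0.0144% for siCoCoA, 0.0719% for siCCAR2 and 0.173% for siZNF282. At an unadjusted p under 0.05 there were 1, 0, 3 and 1 member probes. About 1 test in 20 reaches that p without any difference, and the share over all probes was not counted. The values that follow are thus not read as altered responses. ANGPTL4 probe ILMN_1674376 had a fitted response greater by 1.17 in siCCAR2 cells (95% interval 0.58 to 1.76, adjusted p = 0.19) and by 1.23 in siZNF282 cells (0.48 to 1.98, adjusted p = 0.17). CIDEC probe ILMN_1779597 had a fitted response smaller by 0.73 in siCCAR1 cells and by 0.71 in siCCAR2 cells (differences −0.73 and −0.71), with 95% intervals of −1.35 to −0.10 and −1.33 to −0.09. CIDECP1 had a difference of −0.50 in siCCAR2 cells (−0.96 to −0.04). All ethanol means of these CIDEC and ANGPTL4 probes, and the siCCAR2 ethanol mean of CIDECP1, were below the line, so these differences rest on levels known only as bounds. The intervals are unadjusted. The 4 differences share the siNS arrays.

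The levels themselves differed between siRNAs. In dex, siCCAR1 cells had 0 member probes higher and 7 lower than siNS cells (9.22% and 8.52% of all probes), siCoCoA cells 0 and 1 (9.92% and 8.66%), siCCAR2 cells 3 and 3 (9.74% and 7.67%) and siZNF282 cells 3 and 0 (14.4% and 14.2%). In ethanol the counts were 1 higher and 3 lower in siCCAR1 (6.43% and 5.99%), 0 and 1 in siCoCoA (7.27% and 6.52%), 1 and 3 in siCCAR2 (6.52% and 8.43%) and 2 and 1 in siZNF282 cells (13.6% and 16.6%). The share of member probes called lay near or below the background for siCoCoA and siZNF282. Probes of the same gene are counted separately. The siCCAR1 calls, 7 in dex and 4 in ethanol, stood for 6 and 3 genes. The siCCAR2 calls, 6 in dex and 4 in ethanol, stood for 4 genes in each treatment. These counts too are a description and no test of the set. The interferon-stimulated genes given above moved with the same contrasts, in all 4 depletions, and their part in these differences was not tested. The 8 comparisons share the siNS arrays of each treatment.

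PLIN2 was called against siNS cells in 2 depletions, in opposite directions and under both treatments. In dex, probe ILMN_2138765 had 10.04, 9.81, 10.22 and 9.97 on the 4 siCCAR1 arrays and 11.55 and 11.75 on the 2 siZNF282 arrays, against 10.61, 10.69 and 11.09 as lowest, median and highest in siNS cells. In ethanol it had 9.33, 8.94, 9.40 and 9.54 in siCCAR1 cells and 10.88 and 10.94 in siZNF282 cells, against 9.73, 10.16 and 10.37 in siNS cells. All siCCAR1 arrays lay below and all siZNF282 arrays above the siNS arrays of their treatment. The differences for siCCAR1 were −0.77 ± 0.15 in dex (adjusted p = 0.00021) and −0.82 ± 0.15 in ethanol (adjusted p = 0.00013). For siZNF282 they were 0.87 ± 0.18 in dex (adjusted p = 0.00035) and 0.79 ± 0.18 in ethanol (adjusted p = 0.0011).

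The other PLIN2 probe, ILMN_1801077, moved the same way. It was lower in siCCAR1 cells, with differences of −1.08 ± 0.15 in dex (adjusted p = 2.7e-06) and −0.85 ± 0.15 in ethanol (adjusted p = 0.00013). In siZNF282 cells it was higher by 0.75 ± 0.19 in dex (adjusted p = 0.0029) and 1.06 ± 0.19 in ethanol (adjusted p = 5.1e-05). In siCoCoA cells in dex its difference of −0.41 was called only with the replicate block, which fitted −0.42 (adjusted p = 0.020). The siCCAR2 ethanol arrays of this probe, at 8.84 to 9.15, lay above the siNS ethanol arrays, at 8.34 to 8.74, but the difference was not called.

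PDK4 was lower in siCCAR1 cells. It had 10.19, 9.66, 10.27 and 10.16 in siCCAR1 dex arrays, against 10.47, 10.63 and 10.80 as lowest, median and highest in siNS dex arrays. In ethanol it had 8.54, 8.42, 8.68 and 8.38 in siCCAR1 cells, against 9.19, 9.46 and 9.60 in siNS cells. No array of one siRNA overlapped the other, and the differences were −0.56 ± 0.12 in dex (adjusted p = 0.0013) and −0.92 ± 0.12 in ethanol (adjusted p = 2.2e-06).

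ANGPTL4 was called higher in siCCAR2 cells, on 3 probes in dex and on 1 in ethanol. In dex, probe ILMN_1707727 had 11.09, 11.44, 11.44 and 11.70 in siCCAR2 cells, against 9.93, 10.50 and 10.84 in siNS cells, without overlap. In ethanol it had 7.77, 8.06, 8.48 and 8.82 in siCCAR2 cells, against 6.62, 7.19 and 7.98 in siNS cells, where 1 siCCAR2 array lay within the siNS range. The differences were 0.97 ± 0.22 in dex (adjusted p = 0.0018) and 1.04 ± 0.22 in ethanol (adjusted p = 0.0011). Probes ILMN_2386444 and ILMN_1674376 were higher in siCCAR2 cells in dex by 0.61 ± 0.16 (adjusted p = 0.0052) and 1.09 ± 0.21 (adjusted p = 0.00017). In ethanol neither was called. Their means there were 6.03 and 4.62 in siCCAR2 cells, against 5.82 and 4.70 in siNS cells.

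ANGPTL4 calls in other depletions rested on single probes. Probe ILMN_1674376 had 5.88 and 6.41 in siZNF282 dex arrays, against at most 5.77 in siNS dex arrays, a difference of 0.92 ± 0.26 (adjusted p = 0.0068) that was 0.65 and not called without siZNF282 dex array 3 (adjusted p = 0.19). Probe ILMN_2386444 was lower in siCCAR1 cells in dex, with a difference of −0.51 ± 0.16 (adjusted p = 0.018), a call lost without siCCAR1 dex array 1 or 2 (adjusted p up to 0.099).

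CIDEC and CIDECP1 were lower in siCCAR2 cells, and in part in siCCAR1 cells. In ethanol, CIDEC probe ILMN_2174437 had 5.52, 4.73, 5.45 and 5.58 in siCCAR2 cells, against 6.06, 6.66 and 7.22 in siNS cells, all below them. The difference was −1.29 ± 0.32 (adjusted p = 0.0046). In dex the same probe had 9.22, 9.89, 10.75 and 10.68 in siCCAR2 cells, within and below the siNS range of 9.84 to 11.43, and its difference of −0.73 was called only with the replicate block, which fitted −0.69 (adjusted p = 0.0045). Probe ILMN_1779597 was lower in dex in both depletions, with differences of −0.92 ± 0.22 in siCCAR2 cells (adjusted p = 0.0022) and −0.84 ± 0.22 in siCCAR1 cells (adjusted p = 0.0052).

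CIDECP1 had 6.32, 6.59, 6.83 and 6.67 in siCCAR2 dex arrays, against 7.30, 7.67 and 7.91 in siNS dex arrays, all lower. The difference was −1.03 ± 0.16 (adjusted p = 1.1e-05), and in siCCAR1 dex arrays it was −0.73 ± 0.16 (adjusted p = 0.0012). In ethanol it was −0.53 ± 0.16 in siCCAR2 cells (adjusted p = 0.021, at least 1.31-fold lower), a call lost without siCCAR2 ethanol array 2 or 4 or siNS ethanol array 5 (adjusted p up to 0.094).

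LPIN1 went in opposite directions in siCCAR1 and siCCAR2 cells in ethanol. In ethanol it had 10.27, 10.00, 10.37 and 10.30 in siCCAR1 cells and 9.24, 9.43, 9.23 and 9.69 in siCCAR2 cells, against 9.69, 9.81 and 9.96 in siNS cells. The siCCAR1 arrays lay above and the siCCAR2 arrays below the siNS arrays, the nearest of which matched a siCCAR2 array to 2 decimals. The differences were 0.43 ± 0.12 for siCCAR1 (adjusted p = 0.017) and −0.41 ± 0.12 for siCCAR2 (adjusted p = 0.018). The first was lost without siCCAR1 ethanol array 3 or 4 (adjusted p up to 0.068), the other without siCCAR2 ethanol array 1 or 3 (adjusted p up to 0.081). The siCoCoA ethanol arrays, at 9.40 to 9.64, also lay below the siNS ethanol arrays, but that difference was not called. In dex, LPIN1 was lower in siCCAR2 cells, with a difference of −0.44 ± 0.12 (adjusted p = 0.0099), a call lost without siCCAR2 dex array 2 (adjusted p = 0.058). The siCCAR1 dex arrays, at 9.50 to 9.91, overlapped the siNS dex arrays, at 9.14 to 9.90, and gave no call.

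Each CPT1A call was lost on leaving out single arrays. Probe ILMN_1696316 was lower in siCoCoA cells, with differences of −0.58 ± 0.20 in dex (adjusted p = 0.034) and −0.60 ± 0.20 in ethanol (adjusted p = 0.037). Each call was lost without any 1 of 6 of its 10 arrays: in dex siCoCoA arrays 2, 3 and 4 and siNS arrays 4, 5 and 6 (adjusted p up to 0.15), and in ethanol siCoCoA arrays 3 and 4 and siNS arrays 2, 3, 4 and 6 (adjusted p up to 0.19). In siZNF282 ethanol arrays the probe had 4.61 and 6.04, against 6.23, 6.47 and 6.58 in siNS cells, a difference of −1.11 ± 0.25 (adjusted p = 0.00081). Without siZNF282 ethanol array 2 the difference was −0.39 (adjusted p = 0.41). Probe ILMN_1710052 was lower in siCCAR1 cells in dex, with a difference of −0.63 ± 0.19 (adjusted p = 0.020, at least 1.34-fold lower), a call lost without siCCAR1 dex array 1 or 2 (adjusted p up to 0.15).

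PLIN3 and ACSL1 gave no call in any of the 8 comparisons with siNS cells, nor did PNPLA2. With the replicate block, PLIN3 was called higher in siCCAR2 cells in dex (0.40, adjusted p = 0.0056).

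**Figure D4:**
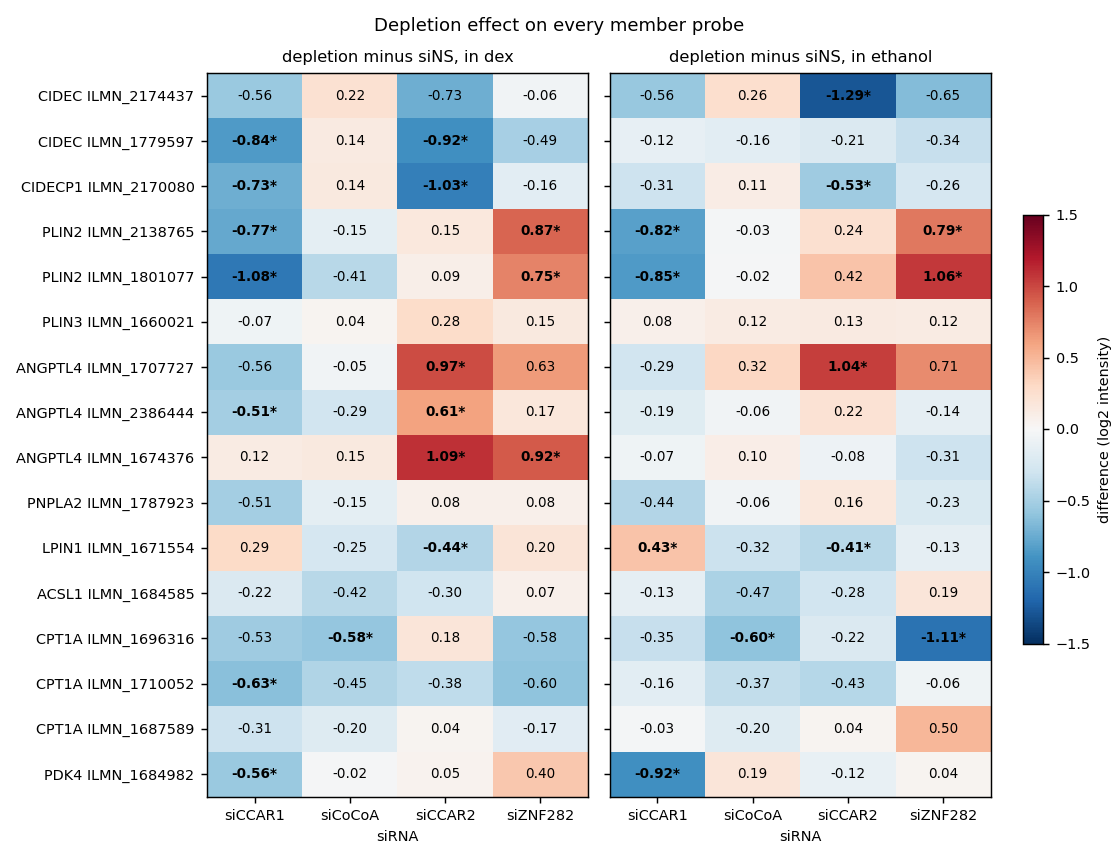
Depletion minus siNS difference in log2 intensity (colour and printed value) for the 16 probes (rows) in dex and in ethanol (columns, by siRNA); an asterisk marks an adjusted p under 0.05. The PLIN2 probes run from −1.08 in siCCAR1 cells to 1.06 in siZNF282 cells.

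The order of the 10 group means shows what set the levels apart. For CIDEC probe ILMN_2174437 the 5 dex groups ran from 11.09 ± 0.48 (SD, n = 4) in siCoCoA to 10.14 ± 0.72 in siCCAR2 cells (n = 4), and the 5 ethanol groups from 6.86 ± 0.57 in siCoCoA to 5.32 ± 0.40 in siCCAR2 cells (n = 4 each). Neighbours within each treatment overlapped, and the treatments were apart. ACSL1 had the same shape, from 10.25 ± 0.38 (n = 2) in siZNF282 to 9.75 ± 0.31 (n = 4) in siCoCoA cells in dex, and from 7.53 ± 0.08 (n = 2) in siZNF282 to 6.88 ± 0.10 (n = 4) in siCoCoA cells in ethanol. The order of ANGPTL4 probe ILMN_1707727 began with siCCAR2 in both treatments, at 11.42 ± 0.25 in dex and 8.28 ± 0.46 in ethanol (n = 4 each).

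PLIN2 mixed the treatments in its order, and PDK4 did not. For PLIN2 probe ILMN_2138765 the siZNF282 dex group stood first at 11.65 ± 0.14 (n = 2), apart from the next. The siCCAR1 dex group, at 10.01 ± 0.17 (n = 4), stood below the siNS ethanol group, at 10.12 ± 0.24 (n = 6), with overlap. The siCCAR1 ethanol group was last at 9.30 ± 0.26 (n = 4), apart from its neighbour. For PDK4 the means of the 5 dex groups stood above those of the 5 ethanol groups, from 11.03 ± 0.10 (n = 2) in siZNF282 dex to 8.50 ± 0.13 (n = 4) in siCCAR1 ethanol arrays. The arrays were not fully apart, with the lowest siCCAR1 dex array at 9.66 and the highest siCoCoA ethanol array at 9.78. For LPIN1 the siCCAR1 ethanol group was first, at 10.24 ± 0.17 (n = 4), and the siCCAR2 dex group last, at 9.07 ± 0.16 (n = 4). PLIN3 had a narrow order, from 11.43 ± 0.24 (n = 4) in siCCAR2 dex to 10.87 ± 0.25 (n = 6) in siNS ethanol arrays, in which all neighbours overlapped, as they did for PNPLA2 and all CPT1A probes.

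Around these genes, 7 lists of lipid genes, 108 genes in all, were read with 1 probe a gene. Of these, 77 genes passed the line, 9 were called higher and 1 lower with dex in siNS cells (6.87% and 7.95% of all probes), and their median log2 change was 0.03, beside −0.03 for all 10608 genes. Among 6 measured droplet coat and assembly genes only CAV1, the coat protein of caveolae, rose (0.93 ± 0.08, adjusted p = 5.6e-12). Of 10 uptake and activation genes, ACSL5, which like ACSL1 activates long-chain fatty acids, rose by 1.83 ± 0.20 (adjusted p = 3.1e-09), and ACSS1, which activates acetate in mitochondria, by 0.66 ± 0.18 (adjusted p = 0.0069). Of 28 oxidation genes, ACOT7, which splits acyl-CoA, and HSD17B4 and DECR1, enzymes of peroxisomal and mitochondrial oxidation, rose by 0.48, 0.43 and 0.35 (adjusted p = 0.00083, 0.0014 and 0.018). None of 7 lipolysis and 7 triglyceride synthesis genes was called in limma.

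Of 12 regulators, PPARGC1B, a coactivator of oxidation genes, was higher by 1.29 ± 0.16 (adjusted p = 1.2e-07), with its ethanol mean below the line. ACACB, which makes the malonyl-CoA that inhibits CPT1A, rose by 1.01 ± 0.13 (adjusted p = 3.2e-07), and PPARG, a fatty acid receptor, by 0.74 ± 0.09 (adjusted p = 2.6e-08). DLAT, a subunit of the pyruvate dehydrogenase complex, was the gene called lower (−0.33 ± 0.10, adjusted p = 0.018), among 7 genes of that complex and its kinases. In the depleted cells dex called 7 of the 77 list genes higher and 0 lower for siCCAR1 (3.85% and 2.81% of all probes), and 8 and 1 for siCoCoA (4.84% and 4.02%). For siCCAR2 it called 9 and 0 (5.77% and 2.98%), and for siZNF282 5 and 1 (3.73% and 2.22%). The medians over all genes lay between −0.02 and 0.01 there. No list gene was called in the 4 differences of dex response.

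Against siNS cells in dex, 7 of the 77 list genes were called higher and 9 lower with siCCAR1 (9.22% and 8.52% of all probes), and 5 and 6 with siCoCoA (9.92% and 8.66%). With siCCAR2 there were 5 and 7 (9.74% and 7.67%), and with siZNF282 11 and 12 (14.4% and 14.2%). In ethanol 5 were higher and 5 lower with siCCAR1 (6.43% and 5.99%), 6 and 3 with siCoCoA (7.27% and 6.52%), 5 and 8 with siCCAR2 (6.52% and 8.43%), and 11 and 14 with siZNF282 (13.6% and 16.6%). Nothing about the lists is read from these counts, which stand beside the shares over all probes. LIPA, the lysosomal acid lipase, was higher in all 8 comparisons, by 0.62 to 1.36 in dex and 0.62 to 1.39 in ethanol (limma, adjusted p at most 1.7e-05). AGPAT2, an acyltransferase of triglyceride synthesis, was lower in siCCAR2 cells, with differences of −1.15 ± 0.11 in dex and −1.51 ± 0.11 in ethanol, and in siCCAR1 cells in ethanol (−0.44 ± 0.11). AGPAT5, an enzyme of the same family, was lower in siCCAR1 cells, with differences of −1.34 ± 0.12 in dex and −1.19 ± 0.12 in ethanol. It was also lower in siZNF282 cells (−1.09 ± 0.15 in dex and −1.42 ± 0.15 in ethanol) and in siCCAR2 cells in ethanol (−0.44 ± 0.12). GPAT3, of the triglyceride synthesis list, went the other way. It was higher in siCCAR1 cells (0.89 ± 0.11 in dex and 0.58 ± 0.11 in ethanol) and siCoCoA cells (0.68 ± 0.11 and 0.47 ± 0.11). In dex it was also higher in siCCAR2 (0.48 ± 0.11) and siZNF282 cells (0.71 ± 0.13). Limma's adjusted p for these GPAT3 differences was at most 0.00205. HILPDA, an inhibitor of PNPLA2 on droplets, was lower in siZNF282 cells, with differences of −1.48 ± 0.21 in dex and −1.46 ± 0.21 in ethanol, and in siCCAR2 cells (−0.77 ± 0.17 in dex and −0.53 ± 0.17 in ethanol). PDK3, a kinase of the PDK4 family, differed by −2.29 ± 0.31 in dex and −1.86 ± 0.31 in ethanol in siZNF282 cells. Its differences were −1.25 ± 0.25 in dex and −0.88 ± 0.25 in ethanol in siCoCoA cells, and −0.90 ± 0.25 in siCCAR2 cells in ethanol. Limma's adjusted p was at most 0.027 for these differences of AGPAT2, AGPAT5, HILPDA and PDK3, which are all those called against siNS cells for the 4 genes.

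The genes whose 10 group means followed each member most closely were taken from the 13903 kept probes. Pearson correlations over 10 group means, which share the arrays and the dex contrast, were 0.988 for CIDEC with CDC42EP3 and TSC22D3, and 0.987 with AMD1. For ACSL1 they were 0.993 with TSC22D3, 0.989 with FAM43A and 0.988 with IRAK3, and for ANGPTL4 0.988 with GADD45B, 0.987 with DUSP1 and 0.986 with GTF2IRD1. PDK4 followed S100P, GTF2IRD1 and MT1X (0.978, 0.976 and 0.975), and PLIN2 followed SOCS3, SERPINA3 and ZC3H12A (0.974, 0.967 and 0.966). CIDECP1 followed ABCC8, CILP and ZXDB (0.986, 0.979 and 0.979), and PLIN3 followed RRAD, EIF2AK3 and TTC39C (0.957, 0.956 and 0.955). The closest genes to CPT1A, PNPLA2 and LPIN1 were SLC71A2, MED30 and TMEM65, at 0.971, 0.966 and 0.941.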

How the data were processed

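Total RNA of A549 cells was measured on 40 Illumina arrays in 1 colour (Cy3). The values used were the log2 intensities that the authors deposited, already normalized between arrays (array medians 4.67 to 4.69, values 4.13 to 14.3). The submitters' processing notes name limma 3.14.4; the background correction, the normalization method and any probe filter are not given in the sources used here. Base 2 was read from the range of the values. A non-normalized table was left out, because its 80 columns (40 signals, 40 detection p-values) carry chip positions that could not be tied to samples through the labels.

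Of 34469 probes, 26360 had a single symbol in GEO's platform annotation, 3 had several and 8106 had no entry. The 13903 probes (10608 genes) with a mean above 5 in at least 1 group were kept; 5 is a line chosen here, and where a group mean lay below it a fold is given as at least the value against 5. One linear model with 10 group means over the 40 arrays was estimated in limma 3.58.1 under R 4.3.3, followed by eBayes (30 residual and 6.07 prior degrees of freedom), with 17 comparisons, 2-sided tests, Benjamini-Hochberg adjustment over the 13903 probes and a threshold of 0.05. Probes of a gene were never averaged, and levels of different probes were not compared. Pairs of same-gene probes were compared by an exact permutation test over the siNS arrays (924 permutations). The scripts were tested on simulated data.

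Members, lists and tests were chosen with earlier results of these data known. Every member probe is described; those called in any comparison are given with SE and adjusted p. Other list genes, read by their brightest probe, are named where called with dex in siNS cells, up to 3 a list. Of the list genes called in the other comparisons, only some are named. The genes closest in pattern are the 3 with the highest Pearson correlation over the 10 group means. The labels do not say that arrays of a group came from separate cultures, so p-values measure the spread between arrays, which may be technical. The number of arrays limits the precision. Pairwise correlations between arrays ran from 0.948 to 0.993.

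Replicate numbers are shared between groups. Correlations of same-numbered arrays' deviations from their group means were above 0.1 for every pair between dex and ethanol arrays in siNS (0.114 to 0.259), siCCAR1 (0.119 to 0.278), siCoCoA (0.107 to 0.384) and siCCAR2 cells (0.153 to 0.444), and between siCoCoA or siCCAR2 and siNS arrays in dex (0.152 to 0.332 and 0.112 to 0.357). These comparisons were taken as paired, on this evidence from the data alone, and their value with the replicate number as a block is given where it changes a call. The block is fitted over all 40 arrays, so it also ties same-numbered arrays of different siRNAs, including those with a pair below 0.1. siZNF282 shares only 2 numbers, and the other comparisons had a pair below 0.1. The alternatives tried were other intensity filters, 1 probe a gene, a further quantile normalization, array weights, a trended and robust eBayes, fits on only the groups compared, all probes of the table, the replicate block, and each array left out.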

Additional observations from a re-analysis of the deposited data

Results flagged for a closer look

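In sets of 4 or 6 arrays of a group, a probe was marked where the highest or the lowest array lay far from the rest by Dixon's test. Of 128 sets tested, 8 were marked, and chance marks about 1 in 20. PLIN3 was at 10.83 on siCCAR1 ethanol array 2, against 10.97 to 10.99 on the other 3. LPIN1 was at 9.50 on siCCAR1 dex array 2, against 9.89 to 9.91. ANGPTL4 probe ILMN_2386444 was at 5.28 on siCCAR1 ethanol array 2, against 5.72 to 5.78, and CPT1A probe ILMN_1687589 at 5.06 on siCCAR1 ethanol array 3, against 4.65 to 4.70. PNPLA2 was at 7.47 on siCoCoA dex array 1, against 6.90 to 6.92. In siCCAR2 cells, the PLIN2 probes ILMN_1801077 and ILMN_2138765 were at 9.20 and 10.74 on dex array 2, against 9.54 to 9.60 and 10.98 to 11.00 on the others, and CIDEC probe ILMN_2174437 was at 4.73 on ethanol array 2, against 5.45 to 5.58. Of the 8, 6 were on arrays with replicate number 2.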

How the results depend on the processing

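Of the 76 calls of a member probe, 57 held under each alternative setting that tested their probe and without each single array of their own comparison, 17 were lost without some array, 15 under another setting and 0 reversed; 32 further probe comparisons were called somewhere. One setting, the replicate block fitted within each siRNA alone, was chosen after seeing the data, and gave 9, 11, 10, 10 and 8 called probes for dex in siNS, siCCAR1, siCoCoA, siCCAR2 and siZNF282 cells. Counting the brightest probe per gene, 6 probes were called for dex in siNS and 7 in siCCAR1 cells, and 3 each for siCCAR1 and siCCAR2 against siNS in dex. For siCoCoA against siNS in dex the count was 0 with no filter, 2 with the line at 6, 3 with quantile normalization, 2 with array weights, 2 with the trended fit and 2 with the replicate block; in ethanol it was 0 with no filter, 2 with only the groups compared and 2 with the block. For siZNF282 against siNS in dex it was 5 with quantile normalization, 6 with array weights and 5 with the block, and in ethanol 5 with the block; for siCCAR1 in dex the block gave 11. The block left 0 probe pairs past the threshold, from which nothing is read, since its sign patterns were too few. The block changed no other call in the paired comparisons than those given with the results. Leaving out 1 array gave 9 to 11 called probes for dex in siNS, 8 to 10 in siCCAR1, 7 to 9 in siCoCoA, 8 to 11 in siCCAR2 and 8 to 9 in siZNF282 cells. Against siNS in dex it gave 5 to 9, 0 to 2, 5 to 7 and 2 to 5 for siCCAR1, siCoCoA, siCCAR2 and siZNF282, and in ethanol 3 to 4, 0 to 1, 3 to 5 and 2 to 5. The differences of response stayed at 0 except 1, CPT1A probe ILMN_1696316, for siZNF282 without ethanol array 3, and 4 to 5 probe pairs passed. With a siZNF282 array left out, the lone array is assumed to vary like the other groups. The cause of these changes was not tested. Signals near the line of 5 limit the weaker CIDEC, ANGPTL4 and CPT1A probes.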
